A study of Arabidopsis thaliana with 6 samples.

Results

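GRX480 (AT1G28480) and its relatives among the CC-type glutaredoxins were examined in Arabidopsis thaliana leaves sprayed with salicylic acid (SA), a phenolic hormone of plant defence. Their loci were chosen by a fixed list of 10 CC-type glutaredoxins, each taken through the annotation of the array's probe sets. A probe set with 1 matched locus was found for 8 of them, of 13286 genes measured in all, and each of the 8 had a single probe set. GRXS13 (AT1G03850) and AT3G21460 were not analysed here. A further 11 CC-type loci served for comparison, of which 9 had a probe set.

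Plants were 3 to 4 weeks old. The mock group received the wetting agent Silwet at 0.01%, and the SA group received 1 mM SA in 0.01% Silwet, so both groups carried Silwet. Leaves were taken 2 hours after the spray, as 3 biological replicates per group with 1 array each. The labels name neither the ecotype nor the number of plants behind a replicate. The comparison asks which leaf transcripts differ between the treatments at that time.

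Glutaredoxins are small oxidoreductases that use glutathione to reduce disulfides or to remove glutathione from proteins. The CC type, named for neighbouring cysteines in the active site, is found in land plants, and several of its members bind bZIP transcription factors of the TGA family. GRX480, also called ROXY19, is known as an SA-induced member whose overexpression dampens the jasmonate-responsive defensin gene PDF1.2. ROXY1 (AT3G02000) and ROXY2 (AT5G14070), which belong to the same class, are known from petal and anther development.

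GRX480 was higher on every SA array than on every mock array. Its log2 signal was 8.62, 7.82 and 8.82 in mock replicates 1, 2 and 3, and 11.86, 11.73 and 11.95 in SA replicates 1, 2 and 3. The mock arrays spread over about 1 log2 unit, with replicate 2 lowest, while the SA arrays lay close together. The means were 8.42 ± 0.53 (SD, n = 3) in mock and 11.85 ± 0.11 (SD, n = 3) in SA-treated leaves. This is a rise of 3.43 ± 0.26 log2 units (standard error), or 10.8-fold, with a 95% interval from 2.79 to 4.06 (limma adjusted p = 0.0115). An exact two-sided permutation test of the 6 arrays gave p = 0.1, the smallest value that 3 arrays against 3 allow. In leaf RNA, more of a transcript per cell and more cells that make it cannot be told apart.

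The rise was large in each replicate number taken alone, at 3.25, 3.91 and 3.13 log2 units in the pairs numbered 1, 2 and 3. Pair 2 held the largest difference, and both its mock and its SA value were the lowest of their groups. Among all genes the fitted change of GRX480 ranked 3rd from the top. The call was lost without SA replicate 2, where the change was 3.49 log2 units (limma adjusted p = 0.0556).

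**Figure D1:**
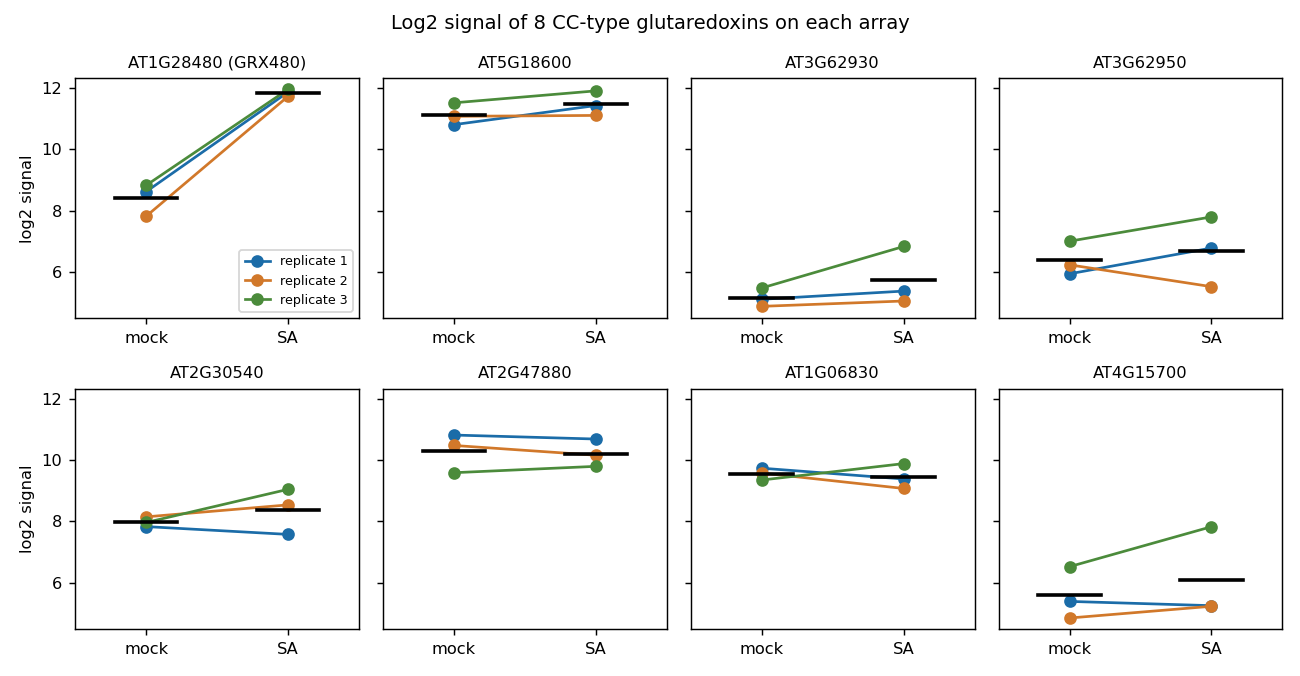
Log2 signal (vertical axis) of the 8 measured members in mock and SA-treated leaves, 1 panel per gene, with coloured lines joining the arrays that share a replicate number and black bars at the group means (n = 3). GRX480 moves from between 7.82 and 8.82 in mock to between 11.73 and 11.95 with SA, while in the other 7 panels the groups overlap. Heights are not comparable between panels, since each gene has its own probe set.

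No other member passed the test. Limma called 1 of the 8 members, GRX480, against a background of 1.63% of all genes called in either direction and 1.04% called as rises. It called 0 of the 7 relatives, with 0 at an unadjusted p under 0.05, a limit that 13.8% of all genes passed. The relatives' changes had a median of 0.35 log2 units and a range of -0.11 to 0.60, beside a median of -0.0077 over all genes. In the order of changes over all genes, 5 of the 7 relatives ranked between 626 and 1291 from the top, above the upper quartile of 0.10. The groups overlapped in all 7, whereas they did not overlap in 18.0% of all genes. Adjusted p-values of the relatives lay between 0.704 and 0.982.

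AT5G18600 gave 10.80, 11.07 and 11.51 in mock replicates 1, 2 and 3 and 11.43, 11.10 and 11.90 in the SA replicates. Each SA array was above the mock array of its number, by 0.62, 0.029 and 0.39, but the groups overlapped. The change of 0.35 ± 0.26 was within the spread between replicates of a group (limma adjusted p = 0.704). With the replicate number as a block its 95% interval ran from 0.014 to 0.68, and AT5G18600 was not called (limma adjusted p = 0.184).

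AT3G62930 and AT3G62950 lie close together in the genome, with 1 protein-coding gene between them, and AT3G62960, which is outside the list, directly follows AT3G62950. AT3G62930 gave 5.11, 4.88 and 5.48 in mock and 5.38, 5.06 and 6.83 in SA-treated leaves. Its high value in SA replicate 3 supplied most of the change of 0.60 ± 0.46, and without that array the change was 0.059. AT3G62950 gave 5.94, 6.24 and 7.01 in mock and 6.78, 5.52 and 7.80 in SA-treated leaves, so SA replicate 2 was the lowest of all 6 arrays. Its differences by pair were 0.84, -0.71 and 0.79, and the change of 0.31 ± 0.59 became -0.24 without SA replicate 3. AT3G62960 went the other way, with a change of -0.54 ± 0.59 and negative differences of -0.38, -0.38 and -0.85 in the 3 pairs. The fitted changes of these nearby genes differed in sign, but limma called none of them. At an unadjusted p under 0.05, a limit that 13.8% of all genes passed, there were 0 of 3. With the replicate number as a block, AT3G62960 had a 95% interval from -0.85 to -0.22 and was not called (limma adjusted p = 0.0597).

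AT4G15700 is the last of 5 CC-type genes that stand directly beside one another, from AT4G15660 to AT4G15700. It gave 5.39, 4.85 and 6.53 in mock replicates 1, 2 and 3 and 5.25, 5.23 and 7.83 in the SA replicates. Both arrays numbered 3 were the highest of their group, and in pair 1 the difference was -0.14. The change was 0.52 ± 0.80 over all arrays and -0.35 without SA replicate 3, so its direction rested on that array.

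AT2G30540 gave 7.83, 8.15 and 7.96 in mock and 7.58, 8.54 and 9.04 in SA-treated leaves. The SA arrays held both the lowest and the highest value, and the change was 0.41 ± 0.36 (limma adjusted p = 0.771). AT2G47880 was lowest in the arrays numbered 3, with 10.81, 10.47 and 9.59 in mock and 10.68, 10.16 and 9.79 in SA-treated leaves. AT1G06830 gave 9.73, 9.58 and 9.35 in mock and 9.38, 9.07 and 9.88 in SA-treated leaves. The changes of these last 2 genes were the only negative ones among the members, at -0.080 ± 0.37 and -0.11 ± 0.22, and both changed sign when single arrays were left out.

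The gap between GRX480 and each relative was then tested directly, as the change of GRX480 minus the change of the relative. The gaps ran from 2.83 log2 units for AT3G62930 to 3.53 for AT1G06830. With the variance of each gap taken from its own 6 arrays, all 7 passed, with limma adjusted p-values from 0.0013 to 0.0273. Over all genes 99.4% passed the same test, a share so high that the calls single out no relative. The moderated form of the test called 99.9% of genes, but its p-values are not used, because every row holds the GRX480 values and the rows are not independent. Exact two-sided permutation tests gave p = 0.1 for each of the 7 gaps, the smallest value possible.

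GRX480 was not separated in this way from every measured gene of the class. Over the 7 relatives and the 9 CC-type genes outside the list, 14 of 16 gaps passed, beside 99.4% over all genes. With the replicate number as a block, 12 of 16 passed. The share of all genes that passed the blocked form is not given here, so its counts have no background to be read against. The gap to AT4G15660 was 2.02 log2 units, with a 95% interval from -1.89 to 5.94 (unmoderated limma adjusted p = 0.225; exact two-sided permutation p = 0.3), and in pair 3 it was 0.52. The gap to AT4G15690 was 2.73 (unmoderated limma adjusted p = 0.0536). Both genes stood high on SA replicate 3.

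Among the 7 listed relatives, the smallest gap within a single replicate number was 1.78, against AT3G62930 in pair 3. The largest was 4.62, against AT3G62950 in pair 2. Intervals of the gaps were wide where a relative varied between replicates. For AT4G15700 the 95% interval ran from 0.54 to 5.28, and for AT5G18600 from 2.10 to 4.06. With the replicate number as a block, 6 of the 7 gaps passed, and the gap to AT3G62950 did not (unmoderated limma adjusted p = 0.0535).

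**Figure D2:**
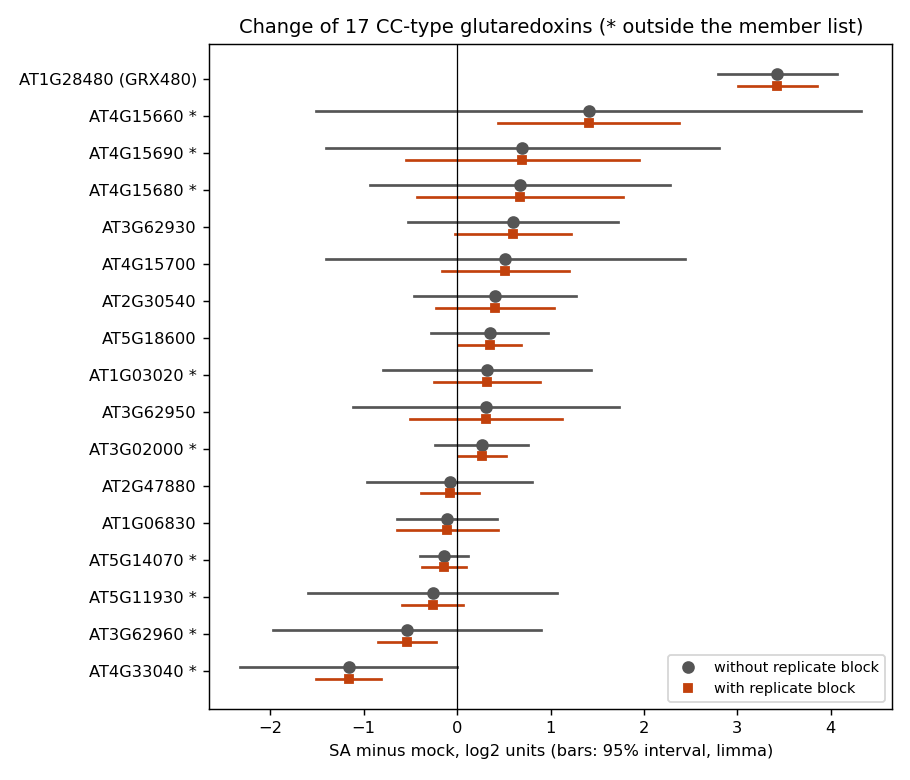
Change from mock to SA in log2 units (horizontal axis) of the 17 measured CC-type glutaredoxins, ordered by size, with 95% intervals from limma without (circles) and with (squares) the replicate number as a block; n = 3 arrays per group. GRX480 stands at 3.43, and every other gene lies between -1.16 for AT4G33040 and 1.41 for AT4G15660.

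Without a block, the 9 CC-type glutaredoxins outside the list were not called either (limma, 0 of 9). An unadjusted p under 0.05 was reached by 1 of them, beside 13.8% of all genes. Their median change was 0.26 log2 units, with 5 above and 4 below 0. Of all 16 measured class members besides GRX480, 5 had an unadjusted limma p under 0.05 with the block, beside 24.9% of all genes. ROXY1 gave 5.34, 5.70 and 5.61 in mock and 5.39, 6.07 and 5.98 with SA, and its change was 0.26 ± 0.21. ROXY2 lay between 5.11 and 5.39 on all 6 arrays, with a change of -0.14 ± 0.10. In both groups, the means of ROXY1, ROXY2, AT3G62930, AT3G62950 and the measured AT4G15660 to AT4G15700 genes were below 7.08. That value is the median over all genes of the mean log2 signal. Whether these genes were detected above background was not tested.

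AT4G33040 had the lowest change of the 17 measured genes of the class. It gave 10.22, 10.95 and 9.23 in mock and 9.13, 9.44 and 8.36 in SA-treated leaves. The groups overlapped through mock replicate 3, yet each SA array was below the mock array of its number, by 1.10, 1.51 and 0.88 log2 units. The change of -1.16 ± 0.48 passed only with the replicate number as a block (limma adjusted p = 0.0103, against 0.360 without the block), a fit that called 9.91% of all genes. The block narrowed the standard error to 0.14. GRX480 kept its call with the block (limma adjusted p = 0.0028), and 0 of its 7 listed relatives were called, with AT5G18600 alone at an unadjusted p under 0.05, a limit that 24.9% of all genes passed in this fit.

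In several CC-type genes the arrays numbered 3 stood apart in both treatments. In the row of neighbours, AT4G15660 gave 4.42, 4.60 and 6.66 in mock replicates 1, 2 and 3 and 5.02, 5.61 and 9.27 in the SA replicates. AT4G15690 gave 4.98, 4.63 and 5.59 in mock and 4.71, 4.72 and 7.86 with SA, and AT4G15680 gave 5.26, 5.22 and 5.59 in mock and 5.23, 5.19 and 7.67 with SA. Over the 4 measured genes of the row, SA replicate 3 lay between 7.67 and 9.27, and SA replicates 1 and 2 between 4.71 and 5.61. All 4 therefore stood high on 1 SA array, whose mock counterpart was also the highest mock array in each. AT4G15660 was also higher with SA in each pair, by 0.60, 1.01 and 2.61, whereas the others had negative differences in pair 1. Its change of 1.41 was not called (limma adjusted p = 0.757, and 0.0902 with the replicate block). The blocked 95% interval ran from 0.44 to 2.38. AT4G15670 was not analysed here. Such close copies may share probes, and the probes' sequences were not used here, so the signals of the 4 genes may not be separate measurements.

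Other members of the class were low on the arrays numbered 3. AT3G62960 gave 9.31, 9.15 and 7.92 in mock and 8.93, 8.77 and 7.07 with SA. AT5G11930 gave 7.71, 8.51 and 6.59 in mock and 7.33, 8.04 and 6.66 with SA. Counting genes whose replicate 3 differed from the mean of replicates 1 and 2 by at least 1 log2 unit in the same direction in both treatments gave 4 of the 17 CC-type genes. AT4G15660 and AT4G15700 were higher, and AT3G62960 and AT5G11930 lower, whereas 0.775% of all genes met this limit. The limit was chosen after the values were seen, and the count is a description.

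**Figure D3:**
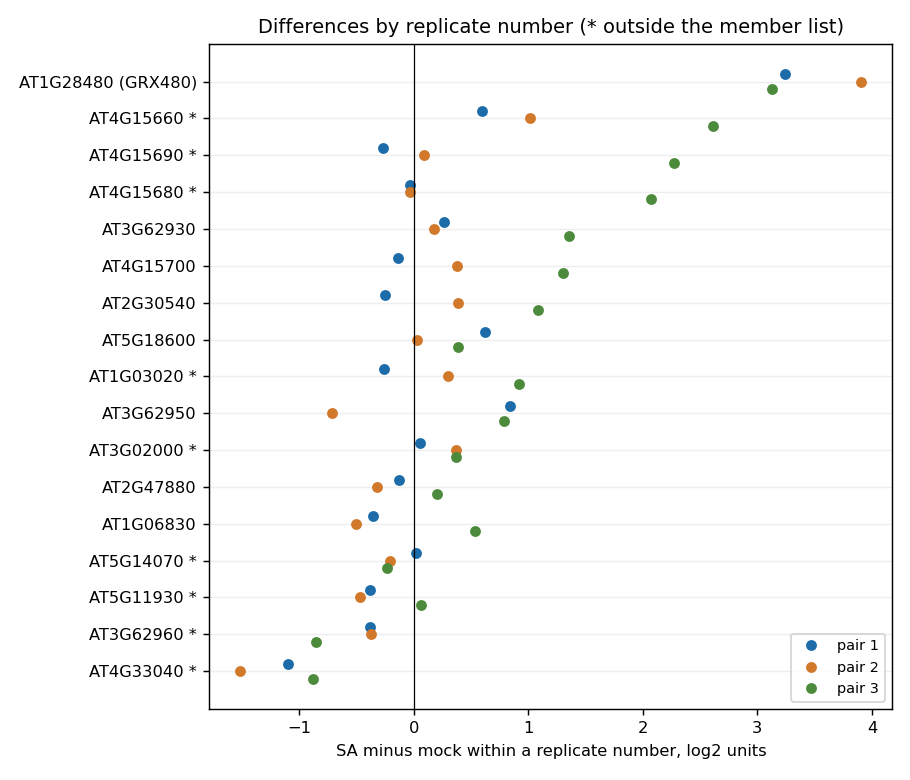
SA minus mock within each replicate number (horizontal axis, log2 units) for the 17 measured CC-type glutaredoxins, with 1 point per pair; points are shifted vertically within a row only to separate them. GRX480 shows 3.13 to 3.91 in all 3 pairs, and the AT4G15660 to AT4G15700 genes show 1.30 to 2.61 in pair 3 and at most 1.01 in pairs 1 and 2.

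The relatives' median difference was -0.13 in pair 1, 0.029 in pair 2 and 0.79 in pair 3. All 7 relatives were higher with SA in pair 3, against 3 of 7 in pair 1 and 4 of 7 in pair 2. Over all genes the medians of the 3 pairs were 0.0049, -0.0040 and -0.038. The positive median change of the relatives thus came largely from the third pair.

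**Figure D4:**
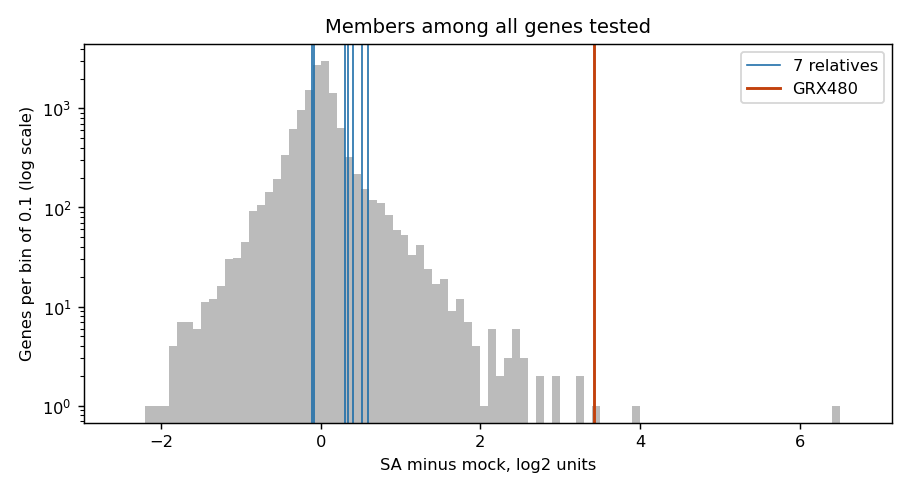
Number of genes per bin of 0.1 log2 units (vertical axis, log scale) by their change from mock to SA (horizontal axis, log2 units) over the 13286 genes tested, with lines at GRX480 and its 7 listed relatives. The relatives lie between -0.11 and 0.60, where the quartiles of all genes are -0.15 and 0.10, and GRX480 lies at 3.43.

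Genes whose pattern was most like that of GRX480 were sought outside the fixed list of CC-type glutaredoxins. Pearson correlation over the 6 arrays was used, among 1327 genes with an SD of at least 0.5. The 5 highest were AT4G02220, AT4G23470, AT4G22530, AT5G03350 and AT5G47250, with correlations between 0.994 and 0.996. They share the arrays and the treatment step with GRX480, so these values describe likeness only. AT4G22530 came closest in size, with 9.01, 8.12 and 8.79 in mock and 11.91, 11.67 and 12.20 with SA, and like GRX480 it was lowest in replicate 2 of each group. AT5G47250 changed by 0.91 ± 0.13 (limma adjusted p = 0.0407). No other CC-type glutaredoxin came near, the highest correlation with GRX480 being 0.54 in AT5G18600 and the lowest -0.80 in AT4G33040.

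The measured glutaredoxins of the CPYC class, another class named for its active site, gave small changes. Of 10 listed genes of the CPYC and CGFS classes, 5 were measured, none of them of the CGFS class. Limma called 0 of the 5, beside 1.63% of all genes. An unadjusted limma p under 0.05 was reached by 0 of them in either fit. That limit was passed by 13.8% of all genes without the block and by 24.9% with it. The changes of the 5 genes ran from -0.070 to 0.14 log2 units. GRXC2 gave 12.74, 12.32 and 11.95 in mock and 12.80, 12.58 and 12.05 with SA. AT1G77370 and AT2G20270 had changes of 0.087 ± 0.13 and -0.070 ± 0.090. The glutathione reductases GR1 and GR, which regenerate the glutathione that glutaredoxins use, had changes of 0.19 ± 0.16 and 0.13 ± 0.12 and were not called.

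Partners and known targets were sparsely represented. None of 10 TGA factors and none of 5 TOPLESS corepressors was analysed here, and of 7 NPR and NIMIN genes only AT4G26120 was. It gave 7.50, 6.56 and 6.91 in mock and 8.14, 7.25 and 7.16 with SA. The change was 0.53 ± 0.34 (limma adjusted p = 0.623). With the replicate number as a block its 95% interval ran from 0.24 to 0.82, and AT4G26120 was not called (limma adjusted p = 0.0513). Each SA array was above the mock array of its number, by 0.64, 0.69 and 0.25.

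Of the jasmonate and ethylene outputs, 3 of 8 genes were measured and all 3 had negative changes. Limma called 0 of the 3, beside 1.63% of all genes. An unadjusted p under 0.05 was reached by 0 of them, beside 13.8% of all genes. PDF1.2 gave 8.74, 7.57 and 9.69 in mock and 8.43, 7.15 and 7.23 with SA. The drop in pair 3, where the mock value was the highest of all, supplied most of its change of -1.06 ± 0.60. PDF1.2b, whose probe set may also detect related defensins, changed by -0.87 ± 0.40 and THI2.1, a thionin gene, by -0.55 ± 1.02. With the replicate number as a block limma called 0 of the 3 as well, beside 9.91% of all genes. In that fit the 95% interval of PDF1.2b ran from -1.58 to -0.15 (limma adjusted p = 0.135). The blocked intervals of PDF1.2 and THI2.1 included 0.

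Early detoxification genes, a group known to respond to SA and xenobiotics through class II TGA factors, gave 3 measured genes of 12. UGT73B5, a glucosyltransferase, gave 8.26, 8.15 and 7.74 in mock and 9.54, 9.21 and 10.74 with SA, so its groups did not overlap. Its change of 1.78 ± 0.40 did not pass (limma adjusted p = 0.105, and 0.0501 with the replicate block). Neither did that of UGT73B4, at 1.53 ± 0.51 (limma adjusted p = 0.249), whose groups did not overlap either. Groups did not overlap in 18.0% of all genes. Both glucosyltransferases had an unadjusted limma p under 0.05, a limit that 13.8% of all genes passed. GSTU25, a glutathione transferase, had a change of 0.17 ± 0.25. The SA array numbered 3 was again the highest for both glucosyltransferases.

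Type-A response regulators, which are induced by cytokinin, gave 2 measured genes in a list of 14 with nitrate assimilation. RR16 gave 8.58, 8.90 and 7.52 in mock and 7.25, 7.53 and 6.17 with SA. Its differences of -1.33, -1.38 and -1.35 were nearly equal in the 3 pairs, and the arrays numbered 3 were the lowest of each group, as they were for AT4G33040. The change of -1.35 passed with the block (limma adjusted p = 0.0036), a fit that called 9.91% of all genes. Without the block the change did not pass (limma adjusted p = 0.277). ARR15 had a change of 0.21 ± 0.27.

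The arrays held 22746 probe sets besides controls, with median log2 signals from 7.41 to 7.51 and correlations between arrays from 0.959 to 0.986. The spike-in control dap was higher in both arrays numbered 1, at 11.42 and 11.52, than in the other 4, at 8.27 to 8.44, so this control set replicate 1 apart in both treatments. Its part in the results was not tested. Mesophyll markers were represented by 2 of 6 listed genes, LHCB4.2 at 13.25 to 13.61 and PRK at 12.65 to 13.07 on all arrays. LHCB4.2 was lower on each SA array than on each mock array, with a change of -0.23 ± 0.10 that was not called. The guard cell gene FMA had a change of -0.22 ± 0.13 and the trichome gene TRY of -0.36 ± 0.31. None of 3 vascular markers was analysed here.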

How the data were processed

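Leaf RNA was labelled as biotinylated cRNA and hybridised to 1 Affymetrix array per replicate. The deposited values are log2 signals from RMA, per the submitters' processing notes, without a stated version. RMA normalizes between arrays, which would largely remove a shift common to most transcripts. The number of arrays limits precision.

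Without 64 control probe sets, 22746 remained, of which 13436 matched 1 locus of RefSeq TAIR10.1 through the platform annotation. The probe set with the highest mean was kept per locus. Differences were fitted with limma 3.58.1 in R 4.3.3 (lmFit, eBayes, treatment only) and adjusted over all 13286 genes by the Benjamini-Hochberg method, with calls at an adjusted p under 0.05. Values with ± and no label are changes and standard errors in log2 units. The change of GRX480 minus that of each gene was fitted likewise; its unmoderated form was added after the data were seen. The fits were tested on simulated data.

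Arrays of the same number deviated together from their group means (correlations 0.76, 0.48 and 0.56, against a limit of 0.1), so a blocked fit by replicate number is also given. What a number stands for is not stated in the labels.

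The members and lists were chosen with earlier results of these data known. Genes named are all measured members, from each pathway list the called genes and up to 3 with the smallest p, and the 5 most like GRX480. Of the CC-type genes outside the list, AT4G15660, AT4G15680, AT4G15690, AT3G62960 and AT5G11930 were named after their values were seen. The alternatives tried are named with their effects in the closing section; filters on dim genes used a mean log2 signal of 5 or the median of all genes, and quantile normalization was also tried.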

Additional observations from a re-analysis of the deposited data

How the results depend on the processing

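Over all 16 alternatives set for it in advance, the change of GRX480 lay between 3.13 and 3.64 log2 units, and 15 of them called it (limma adjusted p from 0.0028 to 0.0556). Leaving out arrays gave 3.13 to 3.63; the call was lost without SA replicate 2 and, in fits added after the data were seen, without both arrays of replicate 1, 2 or 3 (changes 3.52, 3.19 and 3.58; adjusted p = 0.0651, 0.219 and 0.150). Members called then numbered 0, and otherwise 1. The count of all genes called moved from 217 to 1316 with the replicate block, 684 with the block for replicate 1, 135 with 32 linear units added, 334 over all probe sets, 479 with array weights and 143 with a variance trend, and to between 0 and 57 when arrays were left out. The 0 was found without both arrays of replicate 2 or 3, where 1033 and 1374 genes had an unadjusted limma p under 0.05. Median centring gave 118 rises and 41 falls (74.2% rises), against 138 and 79 (63.6%). Under the alternatives, relatives that differed from GRX480 were counted with the moderated gap test, whose p-values are not used. That count was 7, and 4 with genes below the median signal left out, where only 4 relatives remained. By the unmoderated test 7 differed without a block and 6 with the replicate block. It was not run under the other alternatives, so how far these gap calls hold there is not shown. Signs turned when arrays were left out in AT3G62950 (-0.24 to 0.90), AT2G47880 (-0.43 to 0.18), AT1G06830 (-0.43 to 0.092) and AT4G15700 (-0.35 to 0.98). No listed relative of GRX480 was called under any alternative. The cause of these shifts was not tested.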
